A study of Drosophila melanogaster with 2 samples.

Results

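The genes described here encode the proteins of the mitochondrial ribosome in *Drosophila melanogaster*. They are the 73 protein-coding genes whose symbol starts with mRpL (47 genes, large subunit) or mRpS (26 genes, small subunit), of 13945 protein-coding genes on the chromosome arms in Ensembl release 115. The subunit was taken from the symbol alone. The data are lists of chromatin immunoprecipitation (ChIP-seq) peaks in the dm6 genome build, from 1 group of 2 biological replicates, numbered 3 and 4. Both replicates are whole embryos of mixed sex, aged 0 to 16 h, of a transgenic fly line that carries Mes4 with GFP joined to its C terminus. Chromatin sheared by sonication to 200 to 800 bp was precipitated with an antibody to GFP, and both replicates share a control. The RefSeq gene table gives Mes4 as an older name of PolE4. No untagged line was analysed here, so there is no contrast between conditions, and the values average over all cell types of the embryo.

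Mitochondrial ribosomes translate the few proteins that the mitochondrial genome still encodes, which are subunits of the respiratory chain and ATP synthase. All of their proteins are encoded in the nucleus, made in the cytoplasm and imported. The small subunit decodes the mRNA and the large subunit joins the amino acids, as in bacteria, from which many of these proteins descend, while others have no bacterial counterpart. Each gene was scored by the strongest peak whose summit, the position of highest signal in the peak, lay within 500 bp of one of its transcription start sites (TSSs). Strength is the authors' signal value, whose scale is not stated, and signals and ranks are compared only within a list. The optimal IDR list holds 3207 peaks, selected with the irreproducible discovery rate procedure, and they are the strongest 3207 of the 30000 peaks of the relaxed list made from both replicates pooled. Each replicate has a relaxed list of its own, also of 30000 peaks. A relaxed list is meant to hold background as well as peaks: the median −log10 q-value of the pooled list was 0.460, against a maximum of 3.89 that every optimal peak reached. A gene with an optimal summit within 500 bp of a TSS is called bound. Read depth is unknown, since the lists give no counts. Genes are not replicates, so shares are described without a test.

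The peaks at mRpS10, mRpS23 and mRpL23 are 3 of the 4 strongest of the set. The 201 bases centred on each are shown because they hold the peak centres that the ranks below refer to. They are read from the RefSeq Release 6 (dm6) genome sequence, 5′ to 3′ on the strand of the named gene, and the 11 capitals are centred on the summit. The mRpS10 window is chr3R:15229428-15229628 (+ strand), the mRpS23 window chr2L:13835367-13835567 (− strand) and the mRpL23 window chr3L:2373519-2373719 (− strand).
mRpS10: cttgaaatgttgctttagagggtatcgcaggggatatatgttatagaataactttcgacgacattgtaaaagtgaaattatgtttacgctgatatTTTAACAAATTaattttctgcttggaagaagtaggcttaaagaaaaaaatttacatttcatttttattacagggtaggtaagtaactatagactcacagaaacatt
mRpS23: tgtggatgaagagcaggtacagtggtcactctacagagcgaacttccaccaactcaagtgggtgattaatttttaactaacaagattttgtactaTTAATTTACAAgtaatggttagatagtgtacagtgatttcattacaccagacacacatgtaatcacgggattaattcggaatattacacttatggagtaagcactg
mRpL23: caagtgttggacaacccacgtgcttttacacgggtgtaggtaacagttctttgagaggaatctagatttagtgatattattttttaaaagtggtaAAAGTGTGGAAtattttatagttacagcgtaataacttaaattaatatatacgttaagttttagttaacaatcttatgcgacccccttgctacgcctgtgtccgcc
The mRpS10 window lies between the TSS of mRpS10 and that of Art3, a neighbour read in the opposite direction. The mRpS23 window begins at the TSS of its neighbour CenG1A and ends well before that of mRpS23. The mRpL23 window holds a TSS of mRpL23 and begins just short of that of CG9004.

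Mes4-GFP peaks were found at the starts of 18 of the 73 mitochondrial ribosomal protein genes (24.7%), against 15.1% of all protein-coding genes. In the pooled relaxed list 67 of 73 had a summit (91.8%), against 54.6% of all protein-coding genes. Among genes with a pooled relaxed summit, 18 of 67 were bound (26.9%), against 27.6% of all such protein-coding genes, so by that measure the share was near the background. Both subunits were bound in similar proportion, with 12 of 47 large subunit genes (25.5%) and 6 of 26 small subunit genes (23.1%). The 18 genes lay at 18 different peaks.

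**Figure D1:**
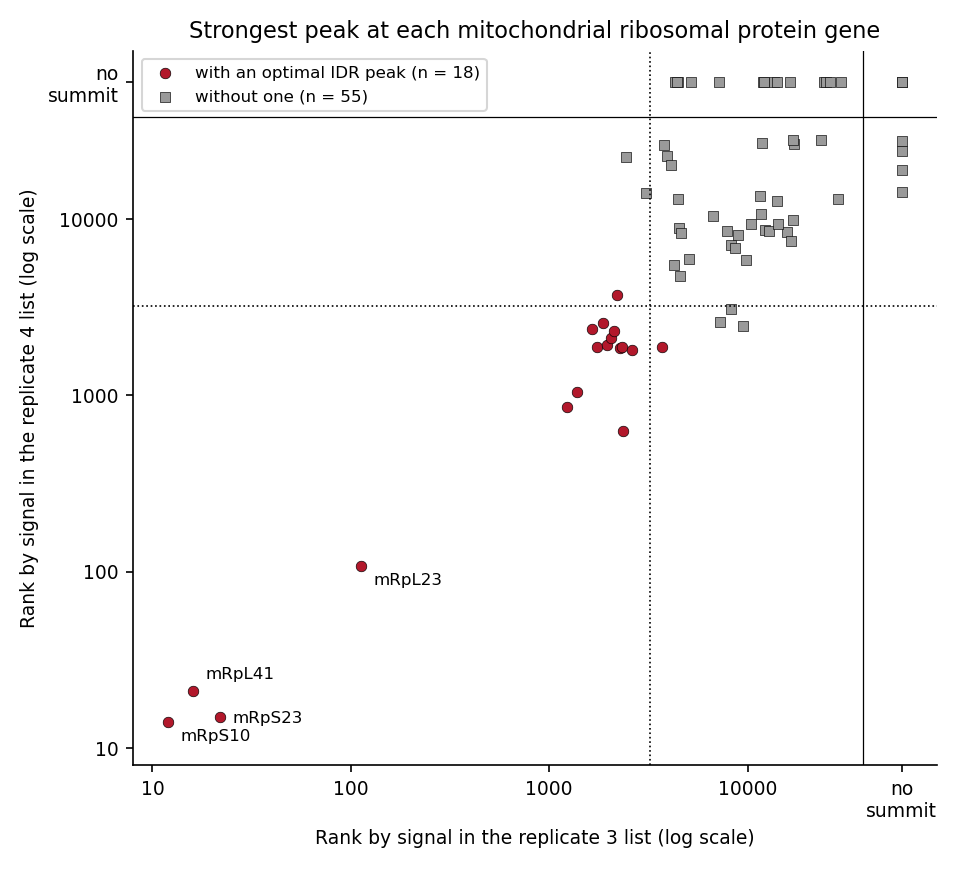
Rank of the strongest peak at each of the 73 mitochondrial ribosomal protein genes in replicate 3 (x axis) and replicate 4 (y axis), both on log axes where rank 1 is the strongest, with genes that lack a summit in a replicate at its edge. Circles are the 18 bound genes, squares the 55 others, and dotted lines mark rank 3207. mRpS10, mRpL41, mRpS23 and mRpL23 stand apart with ranks of 12 to 113 in both replicates, and the other 14 bound genes run from 632 to 3725.

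Among large subunit genes, mRpL41 had the strongest peak. mRpL41, which has no bacterial counterpart, had a signal of 555.4 in replicate 3 and 347.8 in replicate 4. Its pooled signal of 902.9 was rank 16 of the optimal list, at chr2R:15217587-15217920. It ranked 16 in replicate 3 and 21 in replicate 4, so both replicates placed it near the top. Its summit lay 130 bp upstream of its own TSS, and no other protein-coding TSS lay within 500 bp of the summit. The only other TSS there was that of the long noncoding RNA CR44463, at 448 bp.

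mRpL23, whose bacterial counterpart L23 stands at the exit of the peptide tunnel, had signals of 277.3 in replicate 3 and 193.1 in replicate 4. Its pooled signal of 467.3 was rank 110, at chr3L:2373463-2373747, with ranks of 113 in replicate 3 and 108 in replicate 4. mRpL23 was the only bound gene of the set whose summit lay inside the gene, 59 bp downstream of the nearest of its own TSSs. The TSS of CG9004, read the other way, lay 109 bp from the summit.

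The other 10 bound large subunit genes were much weaker, with pooled signals between 110.6 and 168.0. mRpL34 ranked 1000 with a pooled signal of 168.0, and had 89.3 in replicate 3 and 75.4 in replicate 4. mRpL53, also without a bacterial counterpart, ranked 1065 with a pooled signal of 162.1. It had 63.2 in replicate 3 (rank 2343) and 88.6 in replicate 4 (rank 632), one of the wider gaps in rank between the replicates. mRpL11, whose bacterial counterpart lies at the site where elongation factors bind, ranked 1225 with 149.9, and had 83.8 in replicate 3 and 67.6 in replicate 4. mRpL18 ranked 1613 with 127.2, and had 73.8 in replicate 3 and 48.9 in replicate 4. These 4 genes were followed by a close group of 6.

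That group began with mRpL54, at rank 1882 with a pooled signal of 116.8, and with 76.8 in replicate 3 and 42.9 in replicate 4. mRpL32 (rank 1915) had 115.5 pooled, 64.0 in replicate 3 and 49.3 in replicate 4. mRpL24, whose bacterial counterpart acts early in the assembly of the large subunit, ranked 1991 and had 113.1 pooled, 63.5 in replicate 3 and 48.99 in replicate 4. The pooled signals of these 3 genes differed little, but mRpL54 was the highest of the 3 in replicate 3 and the lowest in replicate 4. mRpL21 (rank 2002) had 112.8 pooled, 68.0 in replicate 3 and 46.0 in replicate 4. mRpL4, whose bacterial counterpart helps to line the peptide tunnel, ranked 2046 and had 111.6 pooled, 59.5 in replicate 3 and 49.9 in replicate 4. mRpL51 (rank 2077) had 110.6 pooled, 67.0 in replicate 3 and 43.6 in replicate 4. Each replicate had all 12 of these large subunit genes in its top 3207 peaks.

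Among small subunit genes, mRpS10 had the strongest peak of the whole set. The bacterial counterpart S10 belongs to the head of the small subunit. mRpS10 had a signal of 592.6 in replicate 3 (rank 12) and 399.96 in replicate 4 (rank 14), and its pooled signal of 990.2 was rank 14, at chr3R:15229338-15229707. mRpS23, which has no bacterial counterpart, had 503.0 in replicate 3 (rank 22) and 392.2 in replicate 4 (rank 15), and its pooled signal of 897.1 was rank 17, at chr2L:13835309-13835638. Both ranked high in both replicates, yet neither summit was nearest to the mitochondrial ribosomal protein gene. The mRpS10 summit lay 137 bp from the mRpS10 TSS and 120 bp from that of Art3, an arginine methyltransferase. The mRpS23 summit lay 395 bp from the mRpS23 TSS and 97 bp from that of CenG1A, which activates the GTPase of Arf proteins.

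The other 4 bound small subunit genes had pooled signals between 98.6 and 122.9. mRpS7, whose bacterial counterpart S7 starts the assembly of the small subunit's head, ranked 1710 with 122.9 pooled, 69.5 in replicate 3 and 48.5 in replicate 4. mRpS16 ranked 1970 with 113.8 pooled, 71.3 in replicate 3 and 41.4 in replicate 4. Both passed in both replicates. mRpS2 ranked 2462 with 100.03 pooled, 65.8 in replicate 3 (rank 2188) and 33.8 in replicate 4 (rank 3695). mRpS11 ranked 2540 with 98.6 pooled, 48.2 in replicate 3 (rank 3725) and 48.9 in replicate 4 (rank 1885). mRpS2 was thus outside the strongest 3207 peaks of replicate 4, and mRpS11 outside those of replicate 3.

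Below mRpS11 no gene of the set was bound, although the weakest optimal peak, with a signal of 85.5, was weaker. The 4 strongest genes outside the optimal list were mRpL13, mRpS29, mRpS22 and mRpS6. mRpL13 had 77.3 in the pooled list (rank 3793), 40.05 in replicate 3 and 26.4 in replicate 4. mRpS29, the homologue of the GTP-binding protein that is named DAP3 in humans, had 73.2 pooled (rank 4154), with rank 9436 in replicate 3 and rank 2474 in replicate 4. mRpS22 had 70.4 pooled (rank 4429), with rank 2431 in replicate 3 and rank 22550 in replicate 4. For these last 2 genes the replicates placed the same start on opposite sides of the top 3207. mRpS6 had 70.4 pooled (rank 4435), with rank 4587 in replicate 3 and rank 4776 in replicate 4.

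Of the 55 genes that were not bound, 49 had a pooled relaxed summit within 500 bp, down to mRpS28 at rank 29185 with a signal of 23.3. In 33 of the 49 the summit lay upstream of the gene's TSS, and in 29 the gene's own TSS was the nearest. Neither share was computed for unbound protein-coding genes at large, so these counts have no background to be read against. The other 6 of the 55 genes had no pooled summit. Of these, mRpL46 appeared only in replicate 4 (rank 14279), while mRpS35, mRpL15, mRpS33 and mRpL49 appeared only in replicate 3, at ranks from 24328 to 29488. mRpL33 had no summit within 500 bp in any of the 4 lists.

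The replicates' own lists gave much the same number. Replicate 3 had 19 of the 73 genes among its 3207 strongest peaks (26%), against 14.9% of all protein-coding genes, and replicate 4 had 20 (27.4%), against 14.7%. Among the strongest peaks of both replicates there were 16 genes (21.9%), against 11.4% of all protein-coding genes. All 16 were bound in the optimal list, which was itself made from the same replicates, so this is no separate check. The genes that passed in 1 replicate but were not bound were mRpS22 and mRpS31 in replicate 3, and mRpL12, mRpL35 and mRpS29 in replicate 4. Summits of the bound genes sat at nearly the same place in both replicates, with a median offset of 17.5 bp (0 to 137). The offset was within 50 bp for 17 of the 18, and the exception was mRpL54. All 18 bound genes had the summits within 200 bp of each other, as did 25 of the 35 unbound genes with a relaxed summit in both replicates. Optimal peaks were selected by IDR for agreement between replicates, and these offsets were not computed for other protein-coding genes. In the full relaxed lists 67 of 73 had a summit in replicate 3 (91.8%), against 54.9% of all protein-coding genes, and 57 had one in replicate 4 (78.1%), against 50.8%.

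At most of these peaks the start of another gene was nearer. Of the 18 bound genes, 14 had a neighbour's TSS closer to the summit, and 4 had their own TSS nearest, namely mRpL41, mRpL23, mRpL34 and mRpL4. That count moved with the replicate. In the strongest 3207 peaks of replicate 3 alone 5 genes had their own TSS nearest, these 4 and mRpL32. In those of replicate 4 alone there were 7, the same 4 with mRpL54, mRpL12 and mRpS29. Counted over the whole set, 4 of 73 genes were bound with their own TSS nearest (5.48%), against 10.7% of all protein-coding genes. Among bound genes the share was 22.2% (4 of 18), against 71.3% of all bound protein-coding genes. The genes' own TSSs lay a median of 138 bp from the summit (59 to 395), and the nearest TSS of another gene a median of 90 bp (7 to 448). A summit in 1 peak cannot be given to 1 of 2 genes that start on either side of it, and no expression was measured here.

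**Figure D2:**
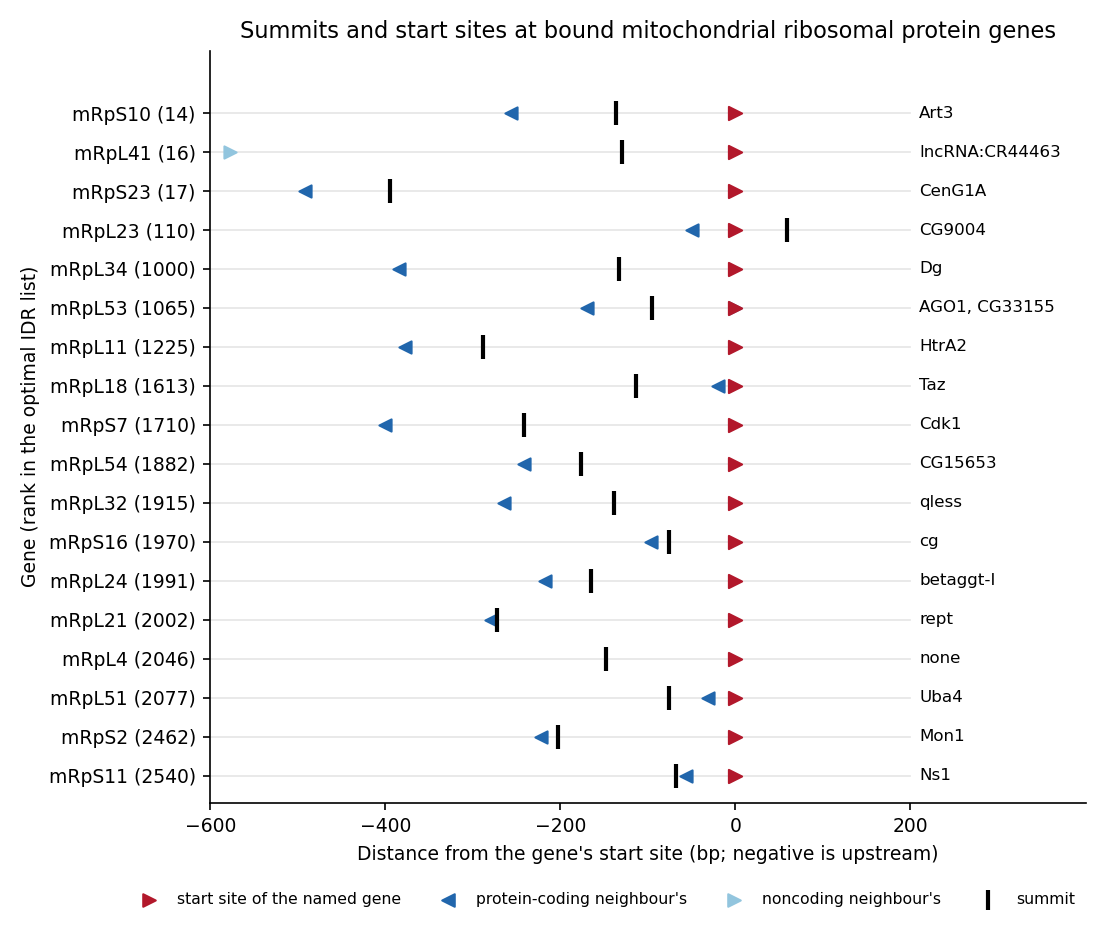
Positions of TSSs around each bound mitochondrial ribosomal protein gene, with the named gene's TSS at 0 (red) and distance in bp on the x axis (negative values upstream). Each row is 1 gene with its pooled rank, and the marks show the summit, the named gene's TSS and the TSSs of other genes within 500 bp of the summit. The TSS of CG33155 coincides with that of mRpL53 and is hidden beneath it. In 17 of 18 rows the summit lies upstream of the named gene, and in 14 a neighbour's TSS is nearer to it.

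The neighbours at large subunit genes were varied in function. The mRpL53 summit lay 95 bp from mRpL53, whose TSS coincides with that of CG33155, and 75 bp from AGO1, the Argonaute protein of microRNA silencing. The mRpL34 summit lay 133 bp from mRpL34 and 251 bp from Dg, which encodes dystroglycan. The mRpL51 summit lay 76 bp from mRpL51 and 45 bp from Uba4, which takes part in the thiolation of tRNA. Some neighbours also act in mitochondria. The mRpL11 summit lay 288 bp from mRpL11 and 90 bp from HtrA2, a mitochondrial protease. The mRpL18 summit lay 114 bp from mRpL18 and 94 bp from Taz, which remodels the mitochondrial lipid cardiolipin. The mRpL32 summit lay 139 bp from mRpL32 and 125 bp from qless, which makes the side chain of coenzyme Q.

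The remaining large subunit summits were clearly closer to the neighbour, except at mRpL4. The mRpL54 summit lay 177 bp from mRpL54 and 65 bp from CG15653. The mRpL24 summit lay 165 bp from mRpL24 and 53 bp from betaggt-I, a subunit of a protein prenyltransferase. The mRpL21 summit lay 272 bp from mRpL21 and 7 bp from rept, an ATPase of chromatin remodelling complexes. mRpL4, 148 bp from its summit, was the only bound gene with no other TSS within 500 bp of the summit.

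At the small subunit genes a neighbour was nearer in all 6 cases. Besides Art3 and CenG1A above, the mRpS7 summit lay 242 bp from mRpS7 and 158 bp from Cdk1, the mitotic cyclin-dependent kinase. The mRpS16 summit lay 76 bp from mRpS16 and 21 bp from cg, which encodes the DNA-binding protein combgap. The mRpS2 summit lay 203 bp from mRpS2 and 19 bp from Mon1, which acts in endosome maturation. The mRpS11 summit lay 68 bp from mRpS11 and 11 bp from Ns1, a nucleostemin of the nucleolus.

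Mitochondrial ribosomal protein genes start close to another gene more often than protein-coding genes at large, a property of the annotation and not of the ChIP data. Cytoplasmic ribosomal protein genes, here and below, are the protein-coding genes whose symbol starts with RpL or RpS, and sta. They were taken by symbol alone, so genes named as -like, such as RpL24-like, are included. Of the 73 genes, 54 had the TSS of another protein-coding gene within 500 bp of a TSS of their own (74%), against 30.9% of all protein-coding genes and 40.9% of 93 cytoplasmic ribosomal protein genes. In 52 of the 73 (71.2%) the nearest such neighbour was read in the opposite direction away from the gene, against 25.3% of all protein-coding genes. By that definition 15 of the 52 were bound (28.8%), against 29.8% of all protein-coding genes so arranged. Counting any head-to-head neighbour with a TSS within 500 bp of the summit, 16 of the 18 bound genes had one, the addition being mRpL53 with AGO1, since its nearest neighbour CG33155 is on the same strand. The TSSs of these 16 pairs were a median of 232 bp apart (20 to 492), and 12 of the 16 summits lay between them.

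Within each class of start the bound share was close to the background. Of the 54 genes with a shared start, 16 were bound (29.6%), against 28.8% of all protein-coding genes with a shared start. Of the 19 without one, 2 were bound (10.5%), mRpL4 and mRpL41, against 8.95% of all protein-coding genes without one. So the higher share over the whole set was not seen when genes of like architecture were set side by side. The side on which the summit lay differed more. Of the 16 bound genes with a shared start, 2 had their own TSS nearest (12.5%), against 55.9% of all bound protein-coding genes with a shared start and 94.1% of cytoplasmic ribosomal protein genes (32 of 34). Genes of the set with a shared start also ranked higher in the pooled list, with a median rank of 6675, against 17574 for those without one, among genes with a summit there. Over all protein-coding genes the bound share was likewise higher with a shared start (28.8%) than without one (8.95%).

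**Figure D3:**
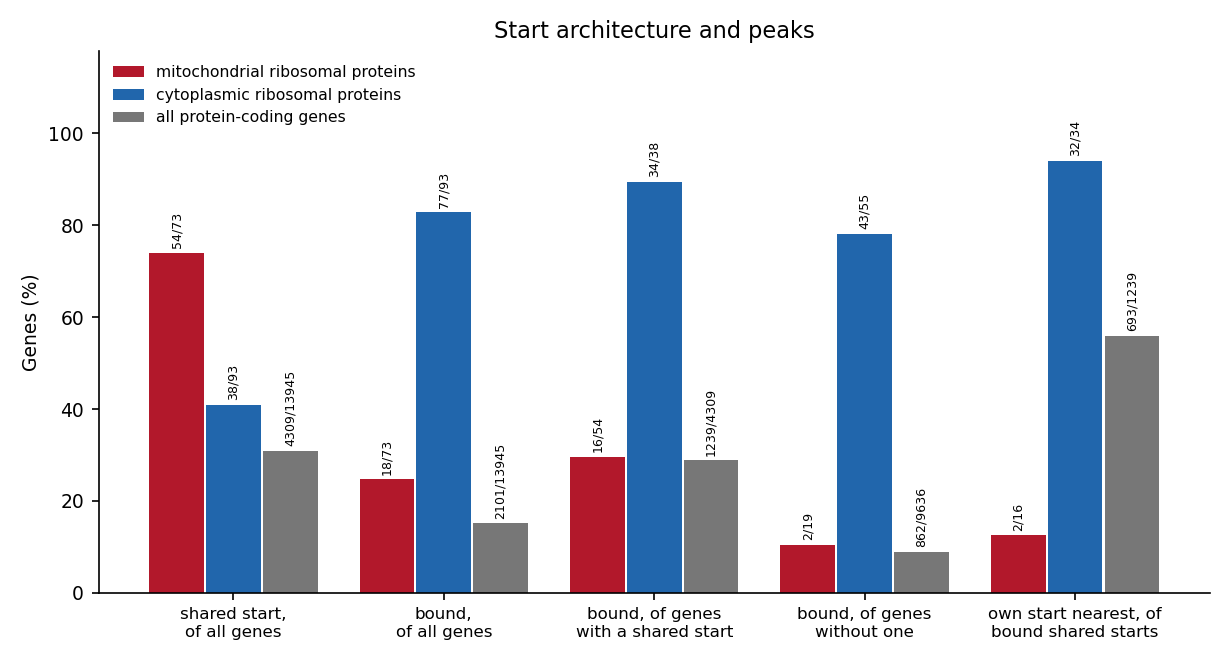
Percent of genes (y axis) with a shared start, bound, bound within each class of start, and with their own TSS nearest among bound genes with a shared start, with the counts above each bar. Bars stand for mitochondrial ribosomal protein genes, cytoplasmic ribosomal protein genes and all protein-coding genes. The bound share of mitochondrial ribosomal protein genes is near that of all protein-coding genes in both classes (29.6% against 28.8%, and 10.5% against 8.95%), while their own TSS is nearest in 12.5%, against 55.9%.

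Most of the bound genes had weak peaks. The median signal in the optimal list was 120 for the 18 mitochondrial ribosomal protein genes, against 275 for the 77 bound cytoplasmic ribosomal protein genes and 132 for all bound protein-coding genes. The strongest 801 peaks of the optimal list lay at 4 of the 73 genes (5.48%), against 4.35% of all protein-coding genes. The same peaks lay at 56 of 93 cytoplasmic ribosomal protein genes (60.2%). At the very top the picture was uneven, since 3 of the 73 genes were at the 100 strongest peaks (4.11%), against 12.9% of cytoplasmic ribosomal protein genes and 0.631% of all protein-coding genes. These 3 were mRpS10, mRpL41 and mRpS23. By rank 1000 the count had grown by 2 genes only, to 6.85%, against 65.6% of cytoplasmic ribosomal protein genes and 5.28% of all protein-coding genes.

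**Figure D4:**
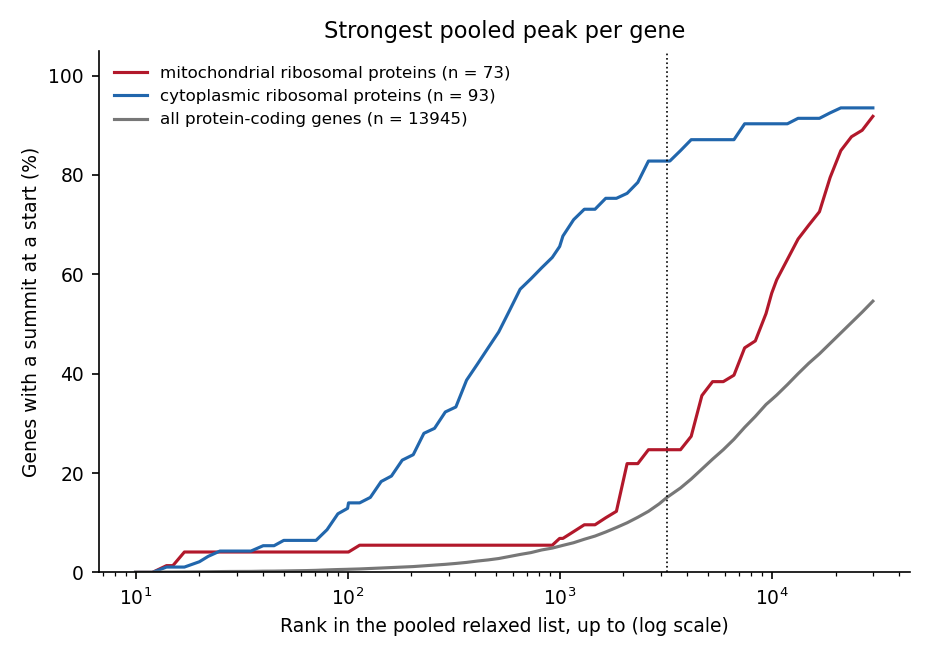
Cumulative percent of genes (y axis) whose strongest pooled peak is at or above a given rank (x axis, log scale), for mitochondrial ribosomal protein genes, cytoplasmic ribosomal protein genes and all protein-coding genes, with a dotted line at rank 3207. The curve of the mitochondrial ribosomal protein genes is flat from rank 110 to 1000, where it stands at 6.85%, against 5.28% of all protein-coding genes, and reaches 56.2% by rank 10000, against 90.3% of cytoplasmic ribosomal protein genes and 34.8% of all protein-coding genes.

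The summits of the mitochondrial ribosomal protein genes also lay farther from the start than those of the cytoplasmic set. Their median distance to the TSS was 138 bp, against 24 bp for bound cytoplasmic ribosomal protein genes and 125 bp for all bound protein-coding genes. In 17 of the 18 bound genes the summit was upstream of the TSS (94.4%), against 82.9% of all bound protein-coding genes. Peaks were 285 to 416 bp wide. Only the 4 strongest, at mRpS10, mRpL41, mRpS23 and mRpL23, were narrower than 416 bp, the most common width in the list.

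The bound genes were spread unevenly over the chromosome arms. On 2L 6 of 12 were bound, against 14.5% of all protein-coding genes of that arm, and on 2R likewise 6 of 12, against 14.7%. On 3L 2 of 17 were bound, against 15.7%, and on 3R 4 of 21, against 16.5%. None of the 11 genes on the X was bound, against 13.7% of all protein-coding genes there, while 15 of 15 cytoplasmic ribosomal protein genes on the X were. In the pooled relaxed list 9 of those 11 genes had a summit (81.8%), against 56.9% of all protein-coding genes on the X. The strongest was mRpL22 at rank 7170 with a signal of 52.5. The numbers per arm are small, and the difference between arms was not tested.

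Other genes of mitochondrial gene expression were counted in the same way, and are to be read against the 15.1% of all protein-coding genes that were bound. Further proteins of the small subunit carry other symbols, namely tko (the counterpart of bacterial S12, at the decoding site) and bonsai. Neither was bound, and in the pooled list bonsai ranked 5935 with a signal of 58.8 and tko ranked 22931 with 27.2. Of 9 mitochondrial translation factors 1 was bound, waw, the counterpart of a bacterial GTPase that moves ribosomes backward, at rank 3070 with a signal of 87.8. Of 15 mitochondrial aminoacyl-tRNA synthetases 2 were bound. These were LeuRS-m at rank 2149 with a signal of 108.5, where a neighbour's TSS was nearer, and ArgRS-m at rank 2273 with 105.2, where its own was nearest. Of 18 genes for mitochondrial RNA and DNA factors 6 were bound (33.3%), all with their own TSS nearest, as in 71.3% of all bound protein-coding genes. Of those 18 genes 12 have a shared start, a class in which 28.8% of all protein-coding genes were bound. The strongest of these were SLIRP2, which belongs to a family that stabilises mitochondrial mRNA, at rank 68 with 557.1, and Lon, the protease of the mitochondrial matrix, at rank 123 with 443.4.

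Sequence motifs were searched on both strands of every protein-coding promoter, from 250 bp before to 50 bp after each gene's most 5′ TSS. The promoters of 4 bound genes are printed because they show where the matches lie for 2 motifs described below. These are the E-box CAGCTG and the DNA replication-related element (DRE) TATCGATA, and matches to either are in capitals. E-box here means the letters CAGCTG alone, and other E-box letters, such as CACGTG, were not searched. The sequences are from RefSeq Release 6 (dm6), 5′ to 3′ on the strand of the gene. They are chr2L:4850370-4850669 (− strand) for mRpS2, chr2L:4945312-4945611 (− strand) for mRpL24, chr3R:31252622-31252921 (+ strand) for mRpL32 and chr2L:13835023-13835322 (− strand) for mRpS23.
mRpS2: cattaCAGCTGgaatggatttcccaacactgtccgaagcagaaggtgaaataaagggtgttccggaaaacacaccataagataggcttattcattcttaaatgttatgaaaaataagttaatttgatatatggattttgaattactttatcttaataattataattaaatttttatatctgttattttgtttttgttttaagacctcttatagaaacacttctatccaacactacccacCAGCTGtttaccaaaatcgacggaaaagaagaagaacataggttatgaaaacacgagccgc
mRpL24: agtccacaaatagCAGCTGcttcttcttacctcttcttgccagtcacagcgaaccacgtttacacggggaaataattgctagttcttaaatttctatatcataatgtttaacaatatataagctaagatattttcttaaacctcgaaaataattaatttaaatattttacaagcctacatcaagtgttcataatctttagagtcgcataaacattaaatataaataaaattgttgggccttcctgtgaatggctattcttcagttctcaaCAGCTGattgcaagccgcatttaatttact
mRpL32: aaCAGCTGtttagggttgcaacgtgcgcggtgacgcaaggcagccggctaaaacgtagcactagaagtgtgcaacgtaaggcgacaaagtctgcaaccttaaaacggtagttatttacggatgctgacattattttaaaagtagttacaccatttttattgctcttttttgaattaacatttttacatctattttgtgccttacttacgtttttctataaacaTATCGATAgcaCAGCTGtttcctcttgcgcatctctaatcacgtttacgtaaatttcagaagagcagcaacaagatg
mRpS23: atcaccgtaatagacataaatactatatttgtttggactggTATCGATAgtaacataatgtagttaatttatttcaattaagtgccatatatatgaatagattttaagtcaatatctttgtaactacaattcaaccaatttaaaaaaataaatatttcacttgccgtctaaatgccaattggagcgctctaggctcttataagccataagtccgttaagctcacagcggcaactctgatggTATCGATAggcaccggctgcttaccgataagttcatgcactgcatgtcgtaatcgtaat
The mRpS2 promoter has E-boxes whose first base is at −245 and −11 bp from the TSS, and the mRpL24 promoter has them at −237 and +20 bp, where negative positions are upstream. In mRpL32 they are at −248 and −16 bp, with a DRE at −27 bp. At these 3 genes the far E-box lies by the start of the head-to-head neighbour, Mon1, betaggt-I and qless. Most genes of the set do not have this arrangement. Of the 52 whose nearest neighbour is head-to-head, 8 had an E-box starting within 50 bp of both TSSs. In 17 it was at the gene's own TSS only, in 4 at the neighbour's only and in 23 at neither. Other head-to-head pairs of protein-coding genes were not counted in this way. The mRpS23 promoter has DREs at −209 and −9 bp and no CAGCTG match.

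The E-box was frequent at mitochondrial ribosomal protein genes whether or not they were bound. It was in 40 of the 73 promoters (54.8%), against 17.7% of all protein-coding promoters and 9.68% of cytoplasmic ribosomal protein promoters. Among the 18 bound genes 11 had it (61.1%), against 23.4% of all bound protein-coding genes, and among the 55 others 29 (52.7%). The matches clustered at the TSS. With a window of 50 bp to each side, chosen after the first shares were seen, 35 of 73 genes had an E-box starting there (47.9%), against 9.54% of all protein-coding genes and 7.53% of cytoplasmic ribosomal protein genes. From 51 to 250 bp upstream the share was 12.3%, against 9.34% of all protein-coding genes. There it differed with binding, at 6 of the 18 bound genes (33.3%) and 3 of the 55 others (5.45%). Within 50 bp of the TSS the shares were 50% and 47.3%. These windows were not counted for all bound protein-coding genes.

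Around the summits themselves the E-box was in 5 of 18 windows of 100 bp to each side (27.8%), against 10.6% of all 3207 optimal summits and 6.49% of summits at cytoplasmic ribosomal protein genes. The 5 windows were those of mRpS2, mRpL24, mRpL18, mRpL54 and mRpL11. There each match lay nearer to the neighbour's TSS than to the gene's own. No CAGCTG match starting within 50 bp of a bound gene's own most 5′ TSS lay in its summit window. The DRE, to which the factor DREF binds, was in 15 of the 73 promoters (20.5%), against 9.36% of all protein-coding promoters and 30.1% of cytoplasmic ribosomal protein promoters. It was in the promoters of 3 of the 18 bound genes (16.7%), mRpS23, mRpL4 and mRpL32, against 15.3% of all bound protein-coding genes. Among the 55 others 12 had it (21.8%). No DRE lay within 100 bp of a summit at any of the 18 genes, against 4.55% of all optimal summits and 24.7% of summits at cytoplasmic ribosomal protein genes (19 of 77). Core promoter Motif 7 was in 17 of the 73 promoters (23.3%), against 9.29% of all, and Motif 1 in 6 (8.22%), against 4.5%. None of those 6 genes was bound, and only 7.09% of all bound protein-coding genes had Motif 1 (149 of 2101).

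The shares of the other motifs were close to those of all promoters for CCAAT, the TATA box and the NRF-1 core. They were higher for the BEAF-32 letters, the GATA motif and, on few matches, Motif 6. CCAAT, the letters bound by nuclear factor Y, was in 34 of the 73 promoters (46.6%), against 46.7% of all, and in 6 of 18 summit windows (33.3%), against 32.8% of all optimal summits. The TATA box TATAAA was also in 34 promoters (46.6%), against 45.8%. The BEAF-32 letters CGATA, which lie inside the DRE, were in 43 (58.9%), against 47.4%. They were in the promoters of 8 of the 18 bound genes (44.4%), against 55.4% of all bound protein-coding genes. Among the 55 others 35 had them (63.6%). At the summits they were in 5 of 18 windows (27.8%), against 31% of all optimal summits. The GATA motif AGATAA was in 17 (23.3%), against 18.7%, and Motif 6 in 3 (4.11%), against 2.23%. The core TGCGCATG of the motif of NRF-1, a regulator of mitochondrial genes in mammals, was in 1 promoter, that of mRpL21 (1.37%), against 1.09% of all. The promoters were somewhat richer in A and T than others, with a median GC content of 34.7%, against 38% of all protein-coding promoters, and the part of base composition in these shares was not tested.

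**Figure D5:**
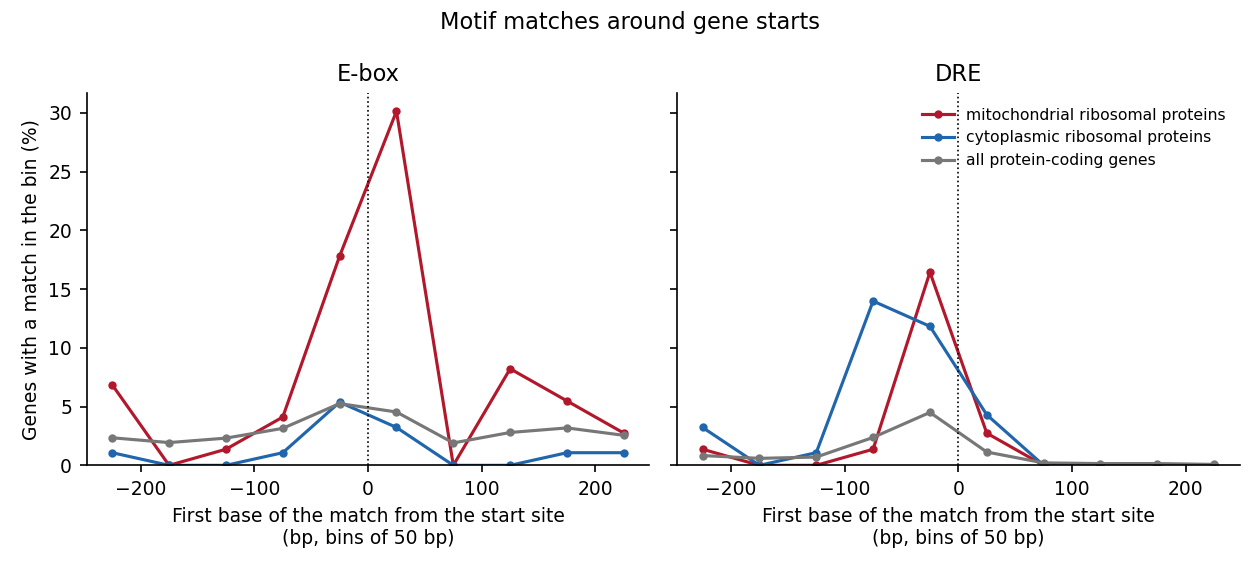
Percent of genes with an E-box or a DRE starting in each 50 bp bin around the most 5′ TSS (x axis, bp, negative upstream), for mitochondrial ribosomal protein genes, cytoplasmic ribosomal protein genes and all protein-coding genes. In mitochondrial ribosomal protein genes the E-box reaches 30.1% in the bin just after the TSS and 17.8% in the bin just before it, and the DRE reaches 16.4% in the bin just before it.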

How the data were processed

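Both samples are ChIP-seq of 1 group and were not paired with another. Per the readme files deposited by the authors, each relaxed list was made from a replicate's alignments, or from both replicates pooled, with a shared control, and the optimal list was made from these by IDR. The aligner, the caller and the threshold of the IDR step were not stated in those notes or the labels. The authors' columns used are the signal of each peak, its −log10 q-value and its summit offset, another deposited number. Peaks were ranked by signal, because the q-value was at its maximum in every optimal row. Lists in dm3 were not used here.

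Summits were set against TSSs of 18164 Ensembl release 115 genes with python 3.11.15, numpy 2.4.6 and pandas 2.3.3. Figures were drawn with matplotlib 3.10.9. The scripts were tested on simulated data. The genes, lists, motifs and alternatives were chosen with earlier results of these data known. Genes are named if bound, if among the 4 strongest unbound, if absent from every list, as neighbours of a bound gene, or as the 2 strongest of another list. The names mEFG2, mtRF1 and Clpp did not match. Other unbound genes, named for their place in 1 replicate, 1 arm or 1 list, were chosen after their values were seen.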

Additional observations from a re-analysis of the deposited data

How the results depend on the processing

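No paired analysis was possible because there is only 1 group of samples. The count of 18 bound genes lay between 15 and 20 when the distance to the TSS, the choice of TSSs, or the way a peak is placed was changed. At 250 bp 16 remained, without mRpL21 and mRpS23, and all protein-coding genes stood at 12.4%. At 1000 bp there were 20, with mRpL33 and mRpL55 added, against 17.5% of all protein-coding genes. Where the peak had to cover the TSS there were 15, without mRpL21, mRpS23 and mRpS7, against 10.8%. Leaving out a replicate (and taking the other's 3207 strongest peaks) gave 19 to 20 genes, of which 17 were shared with the main count each time. The number with their own TSS nearest was 5 to 7 when a replicate was left out, against 4 of the main count; it was 7 without replicate 3, where the mRpL54 summit lay nearer to its own TSS and mRpL12 and mRpS29 came in. With the stronger 1603 peaks alone, fewer by construction, 7 genes were bound (9.59%), against 7.95% of all protein-coding genes, 6 were in the strongest peaks of both replicates, and the aminoacyl-tRNA synthetases and translation factors had 0 bound. The translation factors had 0 to 1 bound with a replicate left out, 0 without replicate 3, where waw fell out. The E-box count of 40 genes became 35 within 50 bp of the TSS and 42 within 150 bp, windows added after seeing the data. The peak lists hold no read counts, so the depth behind each signal is unknown, and a gene without a peak is not shown to lack Mes4-GFP.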
